A study of Mus musculus with 24 samples.

Results

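Immediate early genes are transcribed within minutes of a stimulus from factors that are already in the cell, and most of their transcripts are short-lived. The 10 genes studied here were *Fos*, *Fosb*, *Jun*, *Junb*, *Egr1*, *Atf3*, *Ier2*, *Nr4a1*, *Nr4a3* and *Myc*, chosen by name. The array carried 22328 named genes, and each of the 10 was represented by 1 probe. Their products are mostly transcription factors. FOS and JUN proteins form the dimers called AP-1, ATF3 is a stress-responsive partner of JUN, EGR1 is a zinc finger factor, NR4A1 and NR4A3 are orphan nuclear receptors, IER2 is a small nuclear protein and MYC drives genes of growth. In skeletal muscle these genes are known to respond to contraction, to adrenaline and to injury, and NR4A1 is known to promote genes of glucose and lipid use.

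The arrays measured total RNA of *M. gastrocnemius*, the large calf muscle, from male C57BL/6JOlaHsd mice that arrived at 10 weeks of age. All mice were given a diet with 10% of energy from fat for 3 weeks and then one with 40% for 6 weeks, so neither group was lean. Fasted mice then spent 6 h in air with 12% oxygen (Hypox, n = 12) or in air with 20.9% oxygen (Norm, n = 12) and were killed directly afterwards, so that only a single time point of a rapid response was sampled. On every array Cy5 labelled a single mouse and Cy3 labelled RNA pooled from all of the samples, as the sample descriptions state, although the dye fields of 5 Hypox arrays name other dyes. A value is therefore the log2 ratio of a mouse over that pool, and 0 means a level equal to the pool after normalization. The comparison of Hypox with Norm asked how muscle transcripts differ after a short fall in inspired oxygen. The tissue was ground whole, so that fewer cells of a type and less RNA per cell cannot be told apart.

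There were 6 slides, and the groups were balanced on them, with 4 arrays a slide divided equally. Mean Cy5 signals were 56.7 to 920 (Norm) or 63.2 to 1006 (Hypox) and followed the slide, with 56.7 to 92.5 on slide 1 and 635 to 1006 on slide 6. The mean Cy3 signal of the pool was between 838 and 1445 on every array. Both Hypox arrays of slide 4 stood apart in that channel, with 27.0% and 32.4% of probes well above background against 35.9% to 40.9% on the other 22. There the Cy3 signals of the 8 dim genes were higher than on any other array, such as 175 and 229 for *Fos* against 73.8 to 103, whereas those of *Jun* and *Nr4a1* lay within the range of the others. The 8 markers of skeletal muscle fixed for the check, among them *Acta1*, *Ckm* and *Tnnt3*, were well above background on all 24 arrays. Hypox mouse 2 on slide 3 stood apart, with the lowest value of all 24 arrays for both *Jun* and *Nr4a1*, and values without that mouse are given beside those results.

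Only *Jun* and *Nr4a1* were bright enough to be tested. Their mean Cy5 signals were 44.5 and 97.2 times the local background, both were well above background on all 24 arrays, and both were lower in Hypox except when the arrays were centred on their medians. The other 8 genes lay between 1.12 times background for *Nr4a3* and 1.92 times for *Egr1*, below the limit of 2 set for testing. Of the 10 genes, 2 were thus among the 9186 genes tested. The unadjusted threshold was 0.05, the limit that the study used with Student's t-test. *Jun* and *Nr4a1* were past it by limma's moderated test, beside 12.0% of all genes tested in either direction and 4.96% lower in Hypox. Neither was past an adjusted *P*-value of 0.05 (Benjamini-Hochberg over all genes tested), as were 32 genes or 0.348%.

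**Figure D1:**
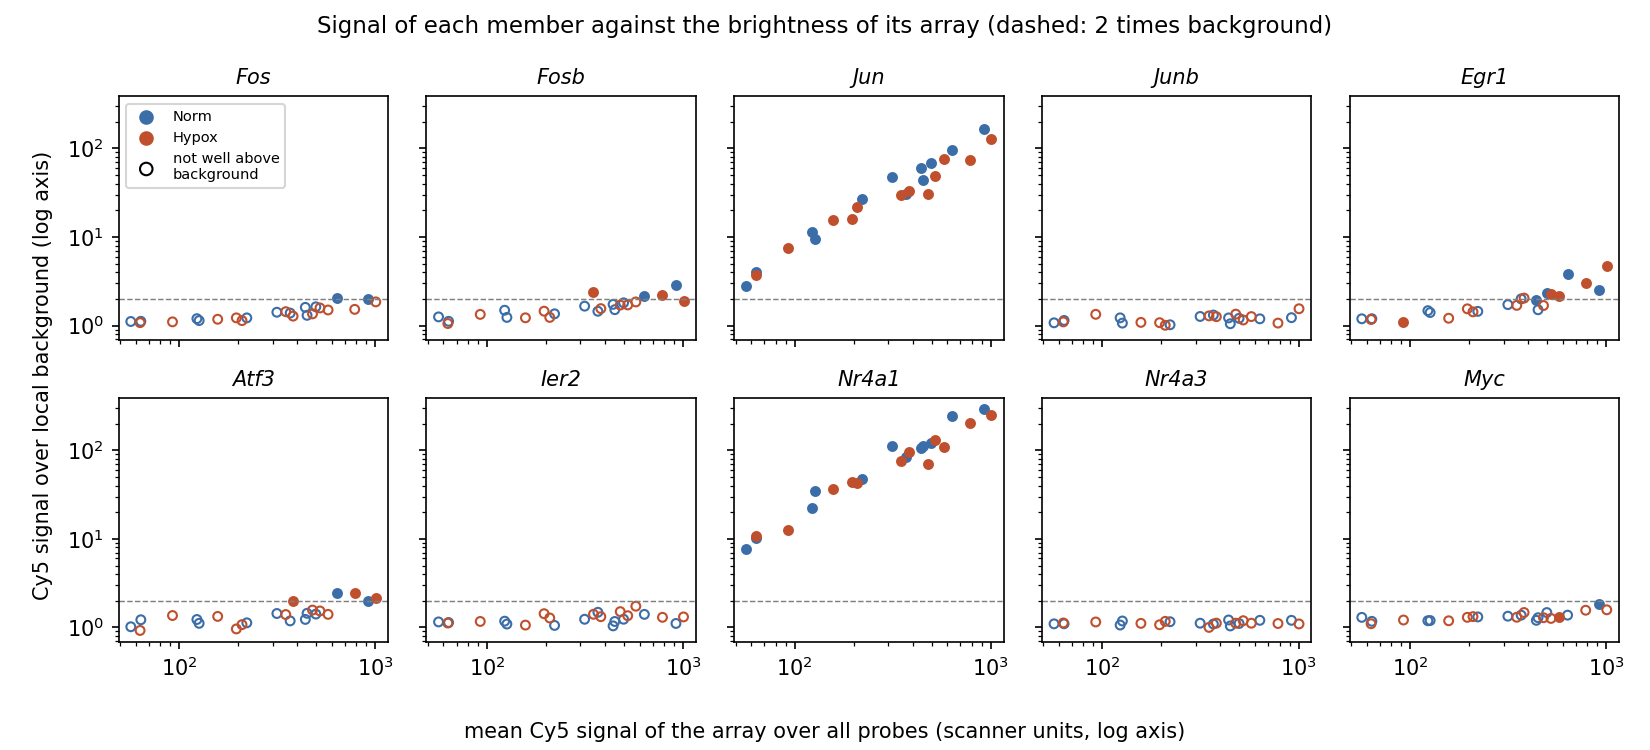
Cy5 signal over local background (vertical, log axis) of each gene against the mean Cy5 signal of its array over all probes (horizontal, scanner units, log axis), with 1 point per array; filled points were called well above background by the scanner software and the dashed line marks 2 times background. *Jun* and *Nr4a1* rise with the brightness of the array and are filled on all 24 arrays, whereas the other 8 genes stay near background and are filled mostly on the brightest arrays.

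The NR4A family is represented by the 60-base probe for *Nr4a1* (NM_010444) at chr15:101105071-101105130 and AP-1 by that for *Jun* (NM_010591) at chr4:94716928-94716987, in the mm9 coordinates of the array design. Where in the transcript the probes lie was not analysed here. Since these were the 2 genes that could be compared, the 250 bases before the start of each are shown, from RefSeq's annotation of GRCm38.p6. The *Nr4a1* stretch is chr15:101266596-101266845 on the plus strand. Capitals mark the core of the cAMP response element, TGACG on the opposite strand, the site of CREB and related factors, and there were 4 copies.
Nr4a1: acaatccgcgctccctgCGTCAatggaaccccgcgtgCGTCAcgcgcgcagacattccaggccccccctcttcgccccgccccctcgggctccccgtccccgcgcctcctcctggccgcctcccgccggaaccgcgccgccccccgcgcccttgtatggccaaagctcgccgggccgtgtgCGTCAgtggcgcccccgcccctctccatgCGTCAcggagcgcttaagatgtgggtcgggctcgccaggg
The *Jun* stretch is chr4:95052223-95052472 on the minus strand. Capitals mark TGACATCA, the variant AP-1 site through which JUN with ATF2 is known to drive its own gene, 45 bases before the start.
Jun: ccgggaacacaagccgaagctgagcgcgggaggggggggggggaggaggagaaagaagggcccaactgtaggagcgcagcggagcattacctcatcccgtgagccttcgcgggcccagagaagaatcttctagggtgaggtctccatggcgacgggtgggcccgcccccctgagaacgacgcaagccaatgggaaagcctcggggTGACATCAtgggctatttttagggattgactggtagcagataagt

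A promoter entry was found for 7 of the 10 genes, *Atf3*, *Fos*, *Fosb*, *Jun*, *Junb*, *Nr4a1* and *Nr4a3*. Motifs were searched on both strands of the 250 bases. The core TGACG was in 6 of the 7, in all but *Jun*, and in 17.8% of 32851 promoters of the same length. *Nr4a3* held 4 copies as *Nr4a1* did. The full element, which is that core followed by TCA, was in none of the 7 and in 1.55% of all promoters. TGACATCA was in *Jun* alone and in 2.93% of all. The core of the hypoxia response element, ACGTG or GCGTG, was in 5 of the 7, among them *Nr4a1* but not *Jun*, and in 38.6% of all promoters. The EGR site GCGGGGGCG was in *Fosb* and *Nr4a1* and in 2.57% of all. The AP-1 sites TGACTCA and TGAGTCA (4.46% of all), the E-box CACGTG bound by MYC (6.02%) and the CArG box bound by SRF (1.47%) were in none of the 7. Other motifs were GGGCGG, the GC box, in 6 (32.7% of all), CCAAT in *Jun* and *Junb* (33.8%) and TATAAA in *Fos* (12.4%). TGACG and ACGTG overlap where they share bases, as in *Nr4a3*.

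*Nr4a1*, also called NUR77, had the larger difference of this pair. Its log2 ratio in Norm was lowest at -0.044, had a median of 0.28 and was highest at 0.62. In Hypox the lowest value was -0.77, the median -0.044 and the highest 0.29. The groups overlapped, but 11 of 12 Hypox mice were below the Norm median, 6 Hypox mice were below every Norm mouse and 6 Norm mice were above every Hypox mouse. The Norm mean was 0.31 ± 0.22 (SD, n = 12) and that of Hypox was -0.078 ± 0.28 (SD, n = 12). The difference, Hypox minus Norm, was -0.39 ± 0.10 (SE) on the log2 scale, or 1.31-fold lower with a 95% interval from 1.14 to 1.51 (limma, *P*-value = 0.00060, adjusted *P*-value = 0.0891). Without Hypox mouse 2 it was -0.33 (limma, *P*-value = 0.00070, adjusted *P*-value = 0.0807), without the Hypox arrays of slide 4 it was -0.41, and without the 5 arrays with other dye labels it was -0.38.

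*Jun*, which encodes a subunit of AP-1 dimers, was also lower in Hypox. Its log2 ratio in Norm was lowest at -0.65, had a median of -0.32 and was highest at -0.012. In Hypox the lowest value was -1.11, the median -0.58 and the highest -0.10. Again 11 of 12 Hypox mice were below the Norm median, with 5 Hypox mice below every Norm mouse and 4 Norm mice above every Hypox mouse. The Norm mean was -0.31 ± 0.23 (SD, n = 12) and that of Hypox was -0.61 ± 0.25 (SD, n = 12). The difference was -0.30 ± 0.098 (SE), or 1.23-fold lower with a 95% interval from 1.07 to 1.42 (limma, *P*-value = 0.0046, adjusted *P*-value = 0.198). Without Hypox mouse 2 it was -0.26 (limma, *P*-value = 0.0092, adjusted *P*-value = 0.214), without the Hypox arrays of slide 4 it was -0.31, and without the 5 arrays with other dye labels it was -0.37.

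These directions depended on how the arrays were scaled. With loess, which sets each gene against genes of like brightness, the median of all genes tested was 0.029. With each array centred on its median instead, the median of all genes moved to 0.25, and *Jun* (0.10, *P*-value = 0.843) and *Nr4a1* (0.099, *P*-value = 0.848) turned to above 0 while staying below that median. In the authors' deposited values *Jun* was at -0.083 (*P*-value = 0.791) and *Nr4a1* at -0.086 (*P*-value = 0.778), beside a median of 0.085 over all genes. Under the scanner software's own processed signals the differences were -0.33 for *Jun* and -0.44 for *Nr4a1*, and with the Cy5 channel alone they were -0.29 and -0.38, all past the unadjusted threshold.

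**Figure D2:**
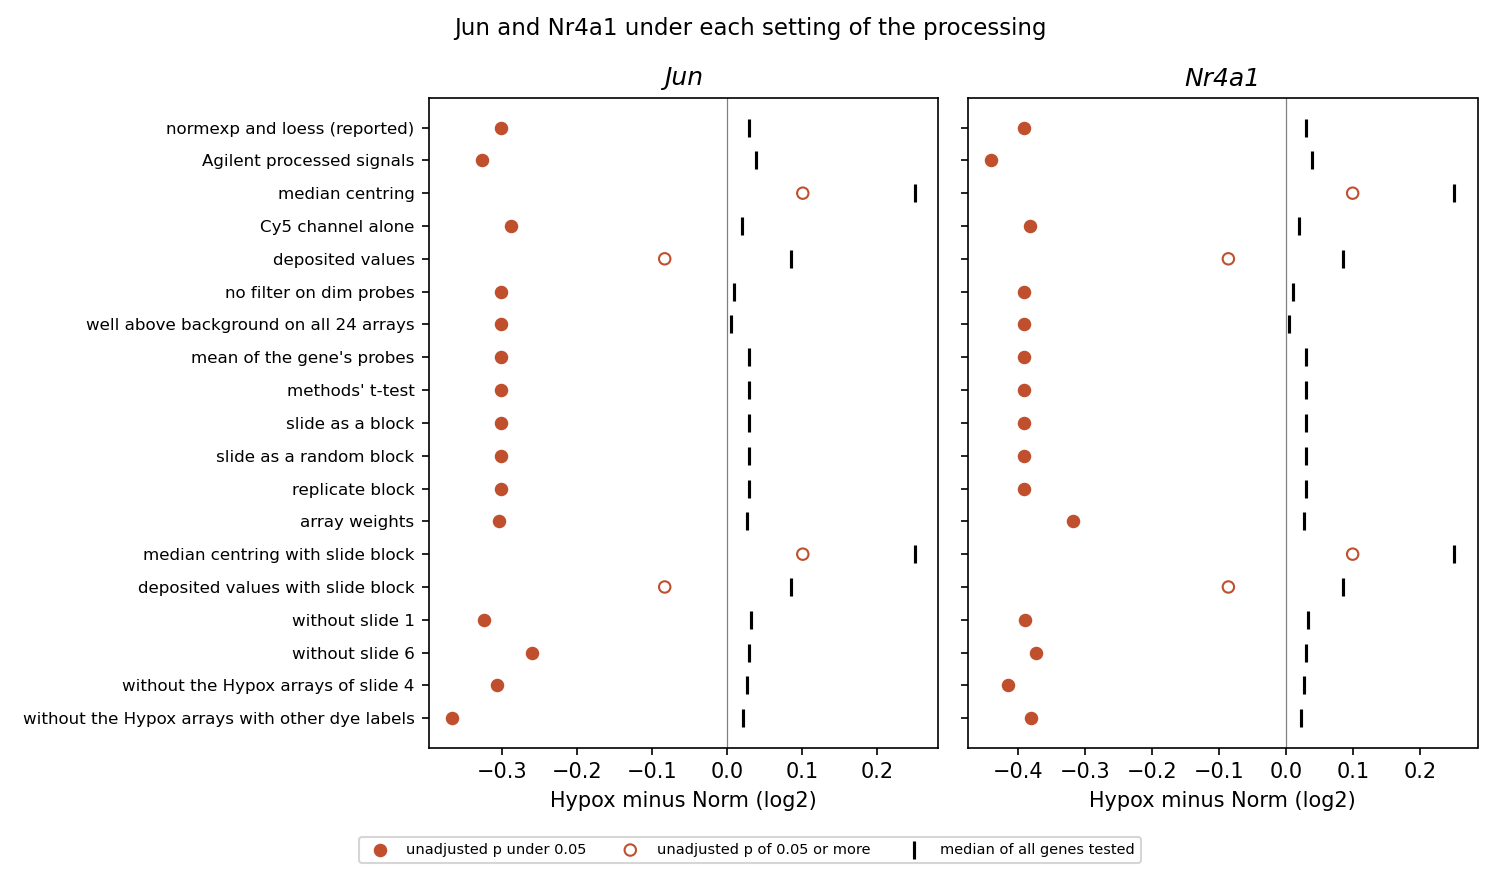
Difference of Hypox minus Norm on the log2 scale (horizontal) for *Jun* and *Nr4a1* under each setting of the processing (vertical); filled points were past an unadjusted *P*-value of 0.05 and black ticks are the median of all genes tested. Every point lies left of its tick, and the open points, which are those of median centring and of the deposited values, lie between -0.086 and 0.10.

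Within slides, in this loess scaling, *Nr4a1* was lower in Hypox on 6 of 6 slides. Arrays of a slide still differed in brightness, with mean Cy5 signals of 123 to 196 on slide 4 and 209 to 381 on slide 5. The difference of the means of 2 Hypox and 2 Norm arrays ran from -0.51 on slide 5 to -0.31 on slide 2, and both Hypox arrays were below both Norm arrays on 5 slides. *Jun* was lower on 5 of 6 slides, from -0.60 on slide 5 to -0.11 on slide 4. On slide 2 it was higher by 0.096. On the loess values, an exact 2-sided permutation test over the 46656 assignments of the groups within slides gave *P*-value = 0.0013 for *Nr4a1* and *P*-value = 0.0086 for *Jun*. Median centring with slide as a block put *Nr4a1* at 0.099 (limma, *P*-value = 0.600) and *Jun* at 0.10 (*P*-value = 0.621). Deposited values with that block put them at -0.086 (limma, *P*-value = 0.517) and -0.083 (*P*-value = 0.568).

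**Figure D3:**
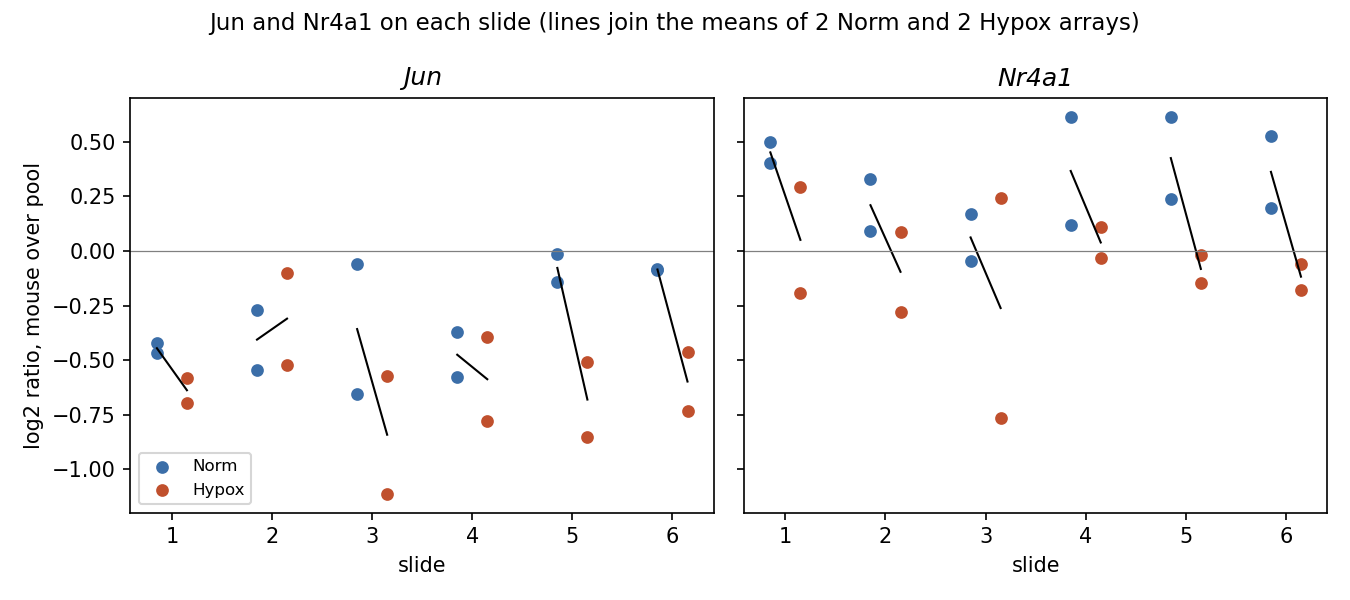
Log2 ratio of mouse over pool (vertical) of *Jun* and *Nr4a1* on each of the 6 slides (horizontal), with 1 point per array and lines that join the slide's mean of 2 Norm and of 2 Hypox arrays. The lines fall on every slide for *Nr4a1* and on all but slide 2 for *Jun* in this loess scaling, and the low Hypox point on slide 3 is Hypox mouse 2.

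The spread between mice was close to that of the median gene for both. The SD within groups was 0.24 for *Jun* and 0.25 for *Nr4a1*, beside a median of 0.24 over all genes tested. Mean absolute deviations from the group mean were 0.21 in Norm and 0.20 in Hypox for *Jun* (limma, *P*-value = 0.847), and 0.19 and 0.20 for *Nr4a1* (limma, *P*-value = 0.860). Of all genes, 5.87% differed in spread at an unadjusted *P*-value of 0.05 (539 genes by limma) and 0 at the adjusted one.

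Among the 10 genes, the AP-1 genes other than *Jun* were close to background. *Fos*, the partner of JUN that is best known as a marker of recent stimulation, was well above background on 2 Norm arrays and 0 Hypox arrays. Both were on slide 6, Norm mice 6 and 12, at 2.04 and 2.00 times local background. Its log2 ratio ran from -0.13 through a median of -0.044 to 0.31 in Norm and from -0.16 through -0.031 to 0.090 in Hypox, and the 10 spots of its probe were averaged on each array. Hypox had only readings that were not well above background, and most Norm readings were of the same kind. The differences that follow are therefore values near background and are not read as a fold change. In the test of all 55681 probes with no filter, in which 8.06% were past the unadjusted threshold, *Fos* had a difference of -0.050 ± 0.050 on the log2 scale (SE; limma, *P*-value = 0.322, adjusted *P*-value = 0.850). It was at -0.18 with the processed signals (*P*-value = 0.449), which are not shrunk by the background correction, at -0.25 in the deposited values (*P*-value = 0.166) and at 0.022 after median centring.

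*Fosb*, a FOS relative with long-lived splice forms, was well above background in 2 Norm and 3 Hypox mice. It ran from -0.13 through 0.038 to 0.16 in Norm and from -0.21 through 0.049 to 0.31 in Hypox, and the difference of 0.0054 had a 95% interval from -0.10 to 0.12. This interval, too, holds only for the background correction used here. With the processed signals *Fosb* was at 0.049 (limma, *P*-value = 0.847), and in the deposited values at -0.093 (*P*-value = 0.621). *Atf3*, which is induced by many stresses, was also measured on 2 Norm and 3 Hypox arrays. It ran from -0.35 through -0.18 to 0.42 in Norm and from -0.38 through -0.043 to 0.28 in Hypox. The difference was 0.077 with an interval from -0.098 to 0.25 (limma with no filter, *P*-value = 0.373), and the groups overlapped over nearly their whole range. That interval holds only for the background correction used here. With the processed signals *Atf3* was at 0.61 (limma, *P*-value = 0.0483, adjusted *P*-value = 0.758), and in the deposited values at -0.048 (*P*-value = 0.802). *Junb*, a JUN relative that is known to maintain muscle mass, was not well above background on any of the 24 arrays and is given no fold change.

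*Egr1* was the dim gene seen most often, on 4 Norm and 5 Hypox arrays. Its log2 ratio ran from -0.24 through 0.052 to 0.62 in Norm and from -0.12 through 0.049 to 0.57 in Hypox. The highest Norm and the highest Hypox value came from the same slide 6, at 3.85 times background in Norm mouse 6 and 4.68 times in Hypox mouse 9. The difference was 0.0067 with an interval from -0.16 to 0.17 (limma with no filter, *P*-value = 0.934). With the processed signals the difference was 0.35 (*P*-value = 0.327), and the interval above holds only for the background correction used here, which shrinks ratios this close to background.

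*Ier2* and *Nr4a3* were not well above background on any array in either channel, and no fold change is given for them. The *Nr4a3* probe, whose 10 spots were averaged, had Cy5 signals of at most 1.21 times background in Norm and 1.19 times in Hypox. *Myc* was well above background in 1 Norm and 1 Hypox mice. It ran from -0.34 through -0.10 to 0.13 in Norm and from -0.29 through -0.090 to 0.14 in Hypox, with a difference of 0.048 and an interval from -0.064 to 0.16 (limma with no filter, *P*-value = 0.391). With the processed signals it was at 0.40 (*P*-value = 0.134). None of the 8 dim probes passed the unadjusted threshold in this test.

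**Figure D4:**
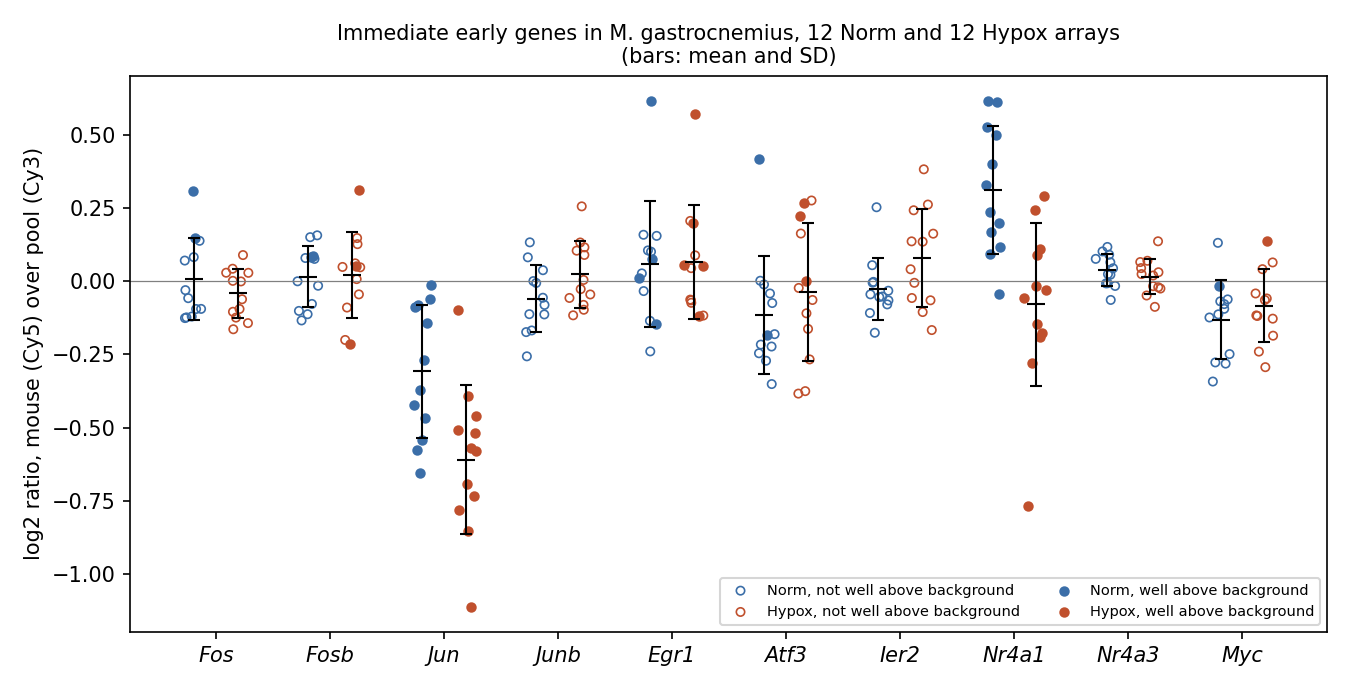
Log2 ratio of mouse over pool (vertical) of the 10 genes in 12 Norm and 12 Hypox arrays, with 1 point per array and bars for the mean and SD; open points were not well above background in Cy5. In this loess scaling the Hypox mean lies below the Norm mean for *Jun* (-0.30) and *Nr4a1* (-0.39), and the other 8 genes are mostly open points with overlapping groups.

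Readings of the dim genes came mostly from a single slide. Of the 96 readings of the 8 dim genes in each group, 11 were well above background in Norm and 12 in Hypox. By slide, 15 of 32 readings were well above background on slide 6, the brightest, and 0 to 4 of 32 on each of the other slides. The flag follows the software's own background model, so that 1 *Egr1* reading on slide 1 was flagged at 1.10 times local background. In the brighter Cy3 channel, the pool of all mice was well above background on 23 of 24 arrays for *Egr1*, 22 for *Fosb*, 20 each for *Atf3* and *Myc*, 6 for *Fos*, 1 for *Junb* and 0 for *Ier2* and *Nr4a3*. Transcripts of *Egr1*, *Fosb*, *Atf3* and *Myc* were thus measured in the pool, while few single mice gave a Cy5 signal well above background.

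The relation of *Jun* to *Nr4a1* between mice was weak within groups in this loess scaling. Over all 24 arrays Pearson's r was 0.51 (permutation *P*-value = 0.0103) and Spearman's rho 0.41 (*P*-value = 0.0470), a pooled value that includes the difference between the groups. Without Hypox mouse 2 and Norm mouse 8, the mice farthest from the *Nr4a1* median, r was 0.40 (permutation *P*-value = 0.0668) and rho was 0.41 (*P*-value = 0.0573), so Pearson's r was smaller without them and the rank correlation was of the same size. Within Norm r was 0.13 (rho 0.12, n = 12; permutation *P*-values 0.680 and 0.716). Within Hypox r was 0.35 (rho 0.15, n = 12; permutation *P*-values 0.255 and 0.634), and -0.27 without Hypox mouse 2. With group and slide means removed it was 0.28. This was the only relation computed between members, since *Fos* and the others were too dim, and adjusted *P*-values equal the raw ones.

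The 5 genes most like *Nr4a1* over the 24 arrays, by Pearson's r after group and slide means were removed, were *Fgf6*, *Snx11*, *Ctsd*, *Hnrnpa0* and *Mccc1*, with r between 0.75 and 0.78. *Fgf6* encodes a muscle growth factor, *Snx11* a sorting nexin, *Ctsd* a lysosomal protease, *Hnrnpa0* an RNA-binding protein and *Mccc1* a subunit of an enzyme of leucine breakdown. Without Hypox mouse 2 their r was between 0.64 and 0.76. In a limma fit with *Nr4a1* as a covariate beside group and slide, 1018 of 9185 genes (11.1%) had an unadjusted *P*-value under 0.05 and 0 an adjusted one. *Jun* was not among the 1018 (*P*-value = 0.238). Without Hypox mouse 2 the count was 311, and without Hypox mouse 3 it was 671. The result for *Jun* depended on the scaling. After median centring its *P*-value in the limma fit was 1.5e-07, where 7615 genes were past the threshold. In the deposited values it was 0.00033, where 2908 genes were. It was 0.0521 with the processed signals and 0.398 with the Cy5 channel alone.

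Most relatives of the 10 genes were too dim to test. Of 15 AP-1, EGR, NR4A and MYC relatives, 6 were tested, with a median difference of -0.062 beside 0.029 over all genes. The 9 below the limit included *Egr2*, *Egr3*, *Nr4a2* and *Fosl1*. Of all genes tested, 12.0% were past the unadjusted threshold and 4.96% were past it and lower in Hypox. *Atf4*, the effector of the integrated stress response, was the only one of the 6 past the unadjusted threshold. It was lowest at 0.22, had a median of 0.61 and was highest at 1.25 in Norm, against -0.047, 0.36 and 0.64 in Hypox. The difference was -0.24 ± 0.10 (SE; limma, *P*-value = 0.0224, adjusted *P*-value = 0.310), but it was above 0 in the deposited values (0.12) and after median centring (0.33). *Jund*, the JUN relative with steady expression, differed by -0.11 ± 0.10 (SE; *P*-value = 0.312).

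Other immediate early genes differed in both directions. Of 42 on a list that leaves out the 10 members, 28 were tested, of which 5 were higher and 1 lower in Hypox at the unadjusted threshold, 22 did not pass, and none passed the adjusted one. Over all genes 12.0% were past the unadjusted threshold, and 58.8% of those were higher. The median difference was 0.049. *Klf10*, a TGF-β-induced repressor, was higher by 0.44 ± 0.12 (SE; *P*-value = 0.0012, adjusted *P*-value = 0.111) and on 6 of 6 slides. *Errfi1*, a feedback inhibitor of the EGF receptor, was higher by 0.42 ± 0.14 on 6 slides, and *Ccn1*, a matrix protein, by 0.40 ± 0.12 on 5. *Gadd45g* and *Btg2*, which restrain growth, were higher by 0.28 ± 0.10 and 0.19 ± 0.075. *Gadd45b*, a stress-induced relative of *Gadd45g*, had a difference of -0.31 ± 0.10 and was lower on 6 slides. *Cebpd* and *Cebpb*, 2 factors of the acute response, had differences of 0.41 ± 0.21 (*P*-value = 0.0569) and 0.31 ± 0.16 (*P*-value = 0.0609). *Klf10* and *Ccn1* stayed past the unadjusted threshold after median centring (0.60 and 0.54, beside 0.25 over all genes), whereas *Errfi1* (*P*-value = 0.107), *Gadd45g* (*P*-value = 0.218) and *Btg2* (*P*-value = 0.131) did not and *Gadd45b* was at 0.0064. In the deposited values *Gadd45g* (*P*-value = 0.138), *Btg2* (*P*-value = 0.426) and *Gadd45b* (*P*-value = 0.276) were not past it.

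Among the pathways around the members, feedback inhibitors of MAP kinases differed in both directions, with 1 each way past the threshold. Of 15, 9 were tested, with a median of 0.052, and the calls of this and the next lists stand beside the 12.0% of all genes past the threshold and the 4.96% that were lower. *Dusp6*, the phosphatase of ERK, was higher by 0.29 ± 0.094 (SE; limma, *P*-value = 0.0045) and on 6 of 6 slides, and *Dusp10*, a phosphatase of JNK and p38, had a difference of -0.30 ± 0.10 (*P*-value = 0.0067). After median centring neither passed (*Dusp6* *P*-value = 0.138, *Dusp10* -0.093, *P*-value = 0.672). In the deposited values both passed the unadjusted threshold (limma, *Dusp6* 0.40, *P*-value = 0.0188, *Dusp10* -0.43, *P*-value = 0.0022). *Dusp1*, itself an immediate early gene, had a difference of 0.062 ± 0.12. Of 38 kinases and factors upstream, 34 were tested with a median of 0.00093, 2 were lower and none higher. These were *Elk1*, a partner of SRF at early gene promoters, at -0.59 ± 0.20 (*P*-value = 0.0077, adjusted *P*-value = 0.231), and *Crebbp*, the coactivator CBP, at -0.28 ± 0.089 (*P*-value = 0.0042), both lower on 6 of 6 slides. The *Elk1* probe was at 666 times background, against 20.1 times for that of *Srf*. Whether it reports *Elk1* alone was not tested. With slide as a block *Elk1* passed the adjusted threshold (adjusted *P*-value = 0.0054), and after median centring *Elk1* (0.11) and *Crebbp* (0.12) were above 0. In the deposited values neither passed (limma, *Elk1* -0.073, *P*-value = 0.827, *Crebbp* -0.078, *P*-value = 0.771). *Srf* differed by 0.052 ± 0.16 and *Mapk3* by 0.0070 ± 0.12. Of 11 partners of MYC, 6 were tested, with a median of 0.058. The repressor *Mnt* alone passed, at -0.19 ± 0.082 (*P*-value = 0.0275), and was at 0.069 after median centring. In the deposited values *Mnt* was at -0.13 (limma, *P*-value = 0.462).

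**Figure D5:**
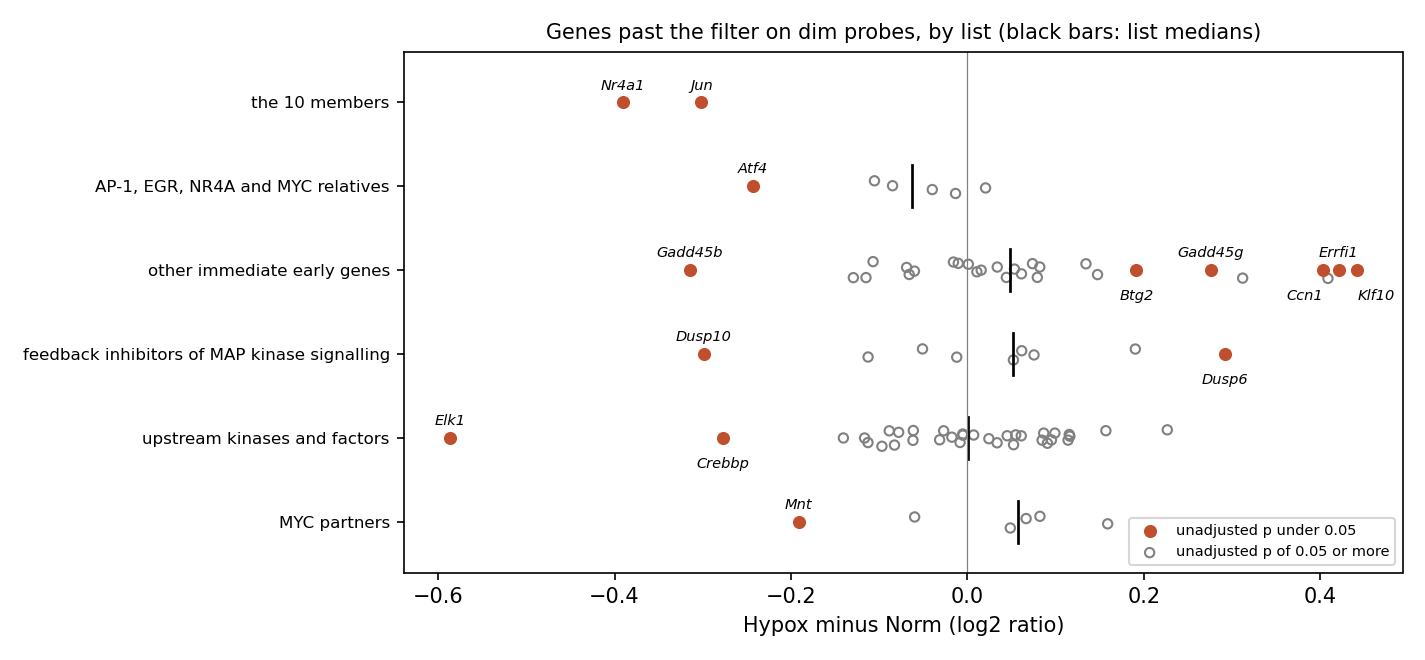
Difference of Hypox minus Norm on the log2 scale (horizontal) of the genes past the filter on dim probes in each list (vertical); filled points were past an unadjusted *P*-value of 0.05, open points were not, and black bars are list medians. *Nr4a1* and *Jun*, the only members shown, lie left of 0 in this loess scaling, while 5 of the 6 filled points among other immediate early genes lie right of it.

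Markers of other tissues varied between the muscles. Their counts past the unadjusted threshold are given for the loess scaling only. Of all genes tested in that scaling, 12.0% were past the threshold and 4.96% were past it and lower in Hypox. Of 5 adipose markers 3 were tested and 2 were lower in Hypox, with mean log2 ratios of -0.81 to 1.24 (Norm) and -0.80 to -0.18 (Hypox), and the highest value was that of Norm mouse 12, without which *Jun* was at -0.28 and *Nr4a1* at -0.40. Of 5 nerve markers 4 were tested and 2 were lower (Norm -0.25 to 0.49, Hypox -0.44 to 0.10). Of 8 lung markers 2 were tested and 1 was higher (Norm -0.90 to -0.11, Hypox -0.72 to 1.33). Of these 2, *Sftpc* was well above background on only 4 of 24 arrays and *Lamp3* on all 24. Of 8 skeletal muscle markers 1 was lower, of 3 endothelial markers tested 1 was higher, of 3 fibroblast markers 1 was lower, and none of 3 red blood cell, 3 macrophage and 1 satellite cell markers passed the unadjusted threshold, while Hypox mouse 2 was the highest of its group for the red blood cell (0.071), satellite cell (1.10) and endothelial markers (0.21) and the lowest for those of nerve (-0.44) and lung (-0.72). None of the 4 neutrophil markers was bright enough to test. The part of these cells in the values of *Jun* and *Nr4a1* was not tested.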

How the data were processed

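The deposited files were the output of Agilent Feature Extraction 10.7.3.1 for 24 2-colour arrays, with the intensity of each spot as the authors' scanner wrote it, not normalized between arrays, and a table of the authors' normalized log2 values, in which the use made of Cy3 is unknown and which held 6 of the 10 genes. The mean signal was corrected for local background with normexp (offset 50), which shrinks the ratios of dim probes. Loess in limma 3.58.1 (R 4.3.3) then normalized each array's log2 ratio, Cy5 over Cy3. Control spots and 7260 flagged readings were left out, and spots of a probe were averaged. Probes were named through RefSeq accessions (27235 of 55681), symbols (3581) or synonyms (565). Those with a mean Cy5 signal over 2 times background and at most 4 arrays without a value were kept, 11324 with a gene, and the brightest stood for its gene. Groups came from the sample titles and slides from the scanner output. Hypox was compared with Norm by limma without a block. *Nr4a1*, the brightest member, took the place of *Fos* as the covariate because *Fos* was below the limit. Mean absolute deviations were scaled for the group size. Permutation tests used 100000 resamples, or all assignments within slides. From each list, the genes named are those past the unadjusted threshold, with a few others of known role chosen after their values were seen, and likeness was ranked for the 5 highest correlations. The number of arrays limits the precision. The limma fits of groups, spread and covariate were tested on simulated data with known changes, in which few genes of changed spread passed the adjusted threshold. The members, lists and motifs were chosen with earlier results of these data known. Nothing in the labels links mice across groups.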

Additional observations from a re-analysis of the deposited data

How the results depend on the processing

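The counts of 2 members past the unadjusted threshold and the signs of *Jun* and *Nr4a1* were the same with the processed signals, the Cy5 channel alone, either other choice of filter, the methods' t-test, averaging over a gene's probes, the slide as a fixed or random block and array weights. With array weights *Nr4a1* had an adjusted *P*-value of 0.0420 (1 member). After median centring 0 members passed, *Jun* was at 0.10 and *Nr4a1* at 0.099, and *Fos* at 0.022. In the deposited values 0 passed, with *Jun* at -0.083, *Nr4a1* at -0.086, *Fos* at -0.25, *Fosb* at -0.093, *Egr1* at -0.10 and *Atf3* at -0.048. Median centring or deposited values with slide as a block, chosen after seeing the data, gave the same differences and 0 members. With Cy5 alone *Fosb* was at -0.0089, *Egr1* at -0.032 and *Myc* at -0.00032, and without slide 6, also chosen after seeing the data, *Egr1* was at -0.022. Of 2 further alternatives chosen after seeing the data, leaving out the Hypox arrays of slide 4 put *Fosb* at -0.0092, and leaving out the 5 with other dye labels put *Fosb* at -0.0033 and *Egr1* at -0.085; 2 members passed in both. *Atf3* passed the unadjusted threshold with the processed signals (0.61, limma, *P*-value = 0.0483, adjusted *P*-value = 0.758), as did *Junb* (*P*-value = 0.0098, adjusted *P*-value = 0.571). *Ier2* passed it with Cy5 alone (*P*-value = 0.0226, adjusted *P*-value = 0.838) and without slide 6 (*P*-value = 0.0333, adjusted *P*-value = 0.595). Neither *Junb* nor *Ier2* was well above background in Cy5 on any array, and they passed in 1 and 2 of 11 alternatives. The cause of these changes was not tested.

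Leaving out each array in turn, 2 members passed each time, *Jun* ranged from -0.35 to -0.26 and *Nr4a1* from -0.42 to -0.33, with adjusted *P*-values from 0.116 to 0.297 and from 0.0547 to 0.168. The count of all genes past the unadjusted threshold was 1106, and 32 after median centring, 729 with Cy5 alone, 489 in the deposited values, 1939 with no filter, 350 for genes well above background on all arrays, 1714 with array weights, 3377 for median centring and 2121 for deposited values with slide as a block. Of the 1106, 58.8% were higher in Hypox, against 42.9% of those well above background on all arrays, 50.2% with Cy5 alone, 100% after median centring, 99.9% with its slide block and 82.0% for deposited values with slide block. Genes that differed in spread numbered 14 after median centring, 184 in the deposited values and 351 around slide means. Genes that varied with *Nr4a1* numbered 444 with the processed signals, 7615 after median centring, 2908 in the deposited values and 1640 with no slide term, and from 311 to 1354 without single arrays. Median centring leaves the dependence of the ratio on brightness in place.

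Same-numbered Norm and Hypox mice did not deviate together (r from -0.18 to 0.43, 3 of 12 over 0.1, 2 of 12 closest to their own number). With the replicate number as a block, *Jun* (-0.30, *P*-value = 0.0106) and *Nr4a1* (-0.39, *P*-value = 0.00067) passed, as did 1181 genes, and no call of a member changed.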
